A study of Mus musculus with 2 samples.

Results

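Cxcl13 and Cxcr5 are a chemokine ligand and its receptor, and both were taken by symbol from the gene table of a droplet single-cell RNA sequencing study of the mouse peritoneal cavity. They are 2 of the 28692 genes listed. Cells were assigned to gates by UMIs (unique molecular identifiers, each a captured RNA molecule) of marker genes, and the pair was followed across those gates in each genotype. One library came from wild-type (WT) mice and one from Xbp1dIEC mice, whose intestinal epithelial cells lack Xbp1, a stress response gene that protects secretory cells. The driver of that deletion is not given in the sources used here. All animals were germ-free C57BL/6 males of 10 weeks, and each library pooled equal cell numbers of 4 mice, from which 8700 cells were loaded. With 1 pool per genotype there are no replicates. No test was possible, and every 95% interval given here covers counting error only, not the difference between mice or between libraries. Intervals of CPM and of ratios of CPM also leave out the spread between cells. For Cxcl13, which few cells hold, they are therefore too narrow.

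CXCL13 is the chemokine that draws B cells into the follicles of lymphoid organs, where stromal cells and follicular dendritic cells make it under control of the lymphotoxin beta receptor and the alternative NF-kB pathway. Its receptor CXCR5 is carried by mature B cells and by follicular helper T cells. In the body cavities, macrophages and milky spot stroma make CXCL13, and the chemokine is known to be needed for the homing of B-1 cells, the innate-like B cells that predominate there, to the peritoneum.

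The Cxcl13 gene (ENSMUSG00000023078) lies on the plus strand at chr5:95956951-95961068 of GRCm38 and has 4 exons. Cxcr5 (ENSMUSG00000047880) lies on the minus strand at chr9:44511787-44561877, with up to 4 exons in its 5 annotated transcripts. Its 3′ end shares 110 bases with the end of Bcl9l (chr9:44482825-44511896), a Wnt pathway coactivator on the plus strand. Whether reads were counted by strand is not given in the sources used here, so reads in the shared bases may belong to either gene. Bcl9l itself was at 6.97 CPM (UMIs of the gene per 1000000 UMIs of a gate) in WT B-1 cells and 9.20 in Xbp1dIEC B-1 cells, at 9.31 and 13.2 CPM in B-2 cells, and at 8.58 and 18.1 CPM in T cells.

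The 250 bases before the Cxcl13 start are shown because they hold the site at which RelB and p52, the factors of the alternative NF-kB pathway, are known to bind this promoter. They are the plus strand of chr5:95956689-95956938, from RefSeq on GRCm38.p6. Capitals mark a match to GGGANNTTT, a pattern that covers that site with 2 bases left free (N), and the TATA box (TATAAA).
Cxcl13 promoter: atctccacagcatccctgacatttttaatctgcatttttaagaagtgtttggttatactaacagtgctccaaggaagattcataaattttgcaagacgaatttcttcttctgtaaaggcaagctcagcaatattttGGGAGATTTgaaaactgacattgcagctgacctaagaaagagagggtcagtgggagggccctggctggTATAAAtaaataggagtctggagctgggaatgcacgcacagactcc
Counted back from the end of this window, at 95956938, the match spans positions -114 to -106 and the TATA box positions -46 to -41. The gene start given above, 95956951, comes from another annotation and lies further on. Searched on both strands, GGGANNTTT was present in 1356 of 32851 promoter windows of that length (4.13%) and TATAAA in 4063 (12.4%), and the 2 patterns do not overlap here. These matches are descriptions of sequence only. No binding was measured here.

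The WT library held 6204 barcodes with a median of 8323.5 UMIs, and the Xbp1dIEC library 6246 with a median of 7279.5. After filtering, 6058 and 6113 cells were kept. Of the barcode sequences, 58 were present in both libraries. Xbp1 was detected in peritoneal cells of both genotypes (111 CPM in WT and 122 CPM in Xbp1dIEC large macrophages), which says nothing about a deletion in the gut epithelium. Free RNA was present throughout: Lyz2, an abundant macrophage gene, had a UMI in 99.7% of WT and 99.5% of Xbp1dIEC cells of the B-1 gate. Stromal and mesothelial markers (Col1a1, Col1a2, Pdpn, Krt19, Upk3b, Msln) summed to 1 UMI in the large macrophage gate of each library and were at 0 in the Folr2/Retnla, Cd209a, B-1, B-2 and T gates.

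Cxcl13 was a macrophage transcript in both libraries. The large macrophage gate took cells with at least 8 UMIs of Csf1r, Adgre1 and Fcer1g and at least 3 of Icam2 and Gata6 together, Gata6 being the transcription factor that defines resident cavity macrophages. It held 2274 WT cells (median 10602 UMIs) and 1927 Xbp1dIEC cells (median 8717). In these cells Cxcl13 stood at 513 CPM (504 to 522) in WT, from 12693 UMIs, and at 808 CPM (795 to 822) in Xbp1dIEC, from 14001 UMIs. These cells carried 71.5% of all Cxcl13 UMIs in WT and 59.5% in Xbp1dIEC.

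Myeloid cells with fewer than 3 Icam2 and Gata6 UMIs held most of the rest, 18.9% and 29.5% of all Cxcl13 UMIs. There were 695 such cells in WT and 1009 in Xbp1dIEC, at shallower medians of 6020 and 5514 UMIs. Their level was above that of the large macrophage gate in both libraries, at 741 CPM (716 to 767) in WT and 1147 CPM (1120 to 1174) in Xbp1dIEC. Some Gata6 was present there too, at 29.8 and 37.6 CPM against 90.6 and 97.4 CPM in the large macrophage gate. A gate set on UMIs of 2 genes also selects on depth, and the part of depth in this order was not tested.

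The other myeloid gates were lower by a wide margin. The Folr2/Retnla gate took cells with at least 2 UMIs of Folr2, a folate receptor of resident tissue macrophages, and 10 of Retnla, a secreted product of alternatively activated macrophages, and none of Gata6. It held 101 WT and 100 Xbp1dIEC cells, and Cxcl13 stood at 27.6 CPM (18.9 to 39.0) and 135 CPM (112 to 162). The Cd209a gate took cells with at least 3 UMIs of this C-type lectin gene and none of Gata6, and held 81 and 72 cells. Its class II genes H2-Ab1, H2-Aa, H2-Eb1 and Cd74 together stood at 73100 CPM in WT and 71553 CPM in Xbp1dIEC, against 9561 and 4178 CPM in the Folr2/Retnla gate. Cxcl13 there was 41.9 CPM (27.4 to 61.3) in WT and 228 CPM (190 to 271) in Xbp1dIEC, but these values rest on single cells, as described further on.

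Lymphocyte gates carried little. Cxcl13 was 3.23 CPM (13 UMIs) and 10.7 CPM (79 UMIs) in the B-1 gate, 6.99 CPM (21 UMIs) and 26.3 CPM (54 UMIs) in the B-2 gate, and 3.90 CPM (5 UMIs) and 8.14 CPM (9 UMIs) in the T gate, with WT given before Xbp1dIEC. No Cxcl13 UMI was found in 20 WT or 25 Xbp1dIEC natural killer cells, which allows a share of cells with a UMI of up to 15% and 12% when 3 counts are taken as the limit of a count of 0. The exact binomial upper bounds were 16.8% and 13.7%. In order of level, other myeloid cells were above large macrophages in both libraries, and large macrophages above the Folr2/Retnla and Cd209a gates. The intervals of the last pair overlapped in WT but not in Xbp1dIEC, where 1 cell held 122 of the 125 UMIs of the Cd209a gate.

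**Figure D1:**
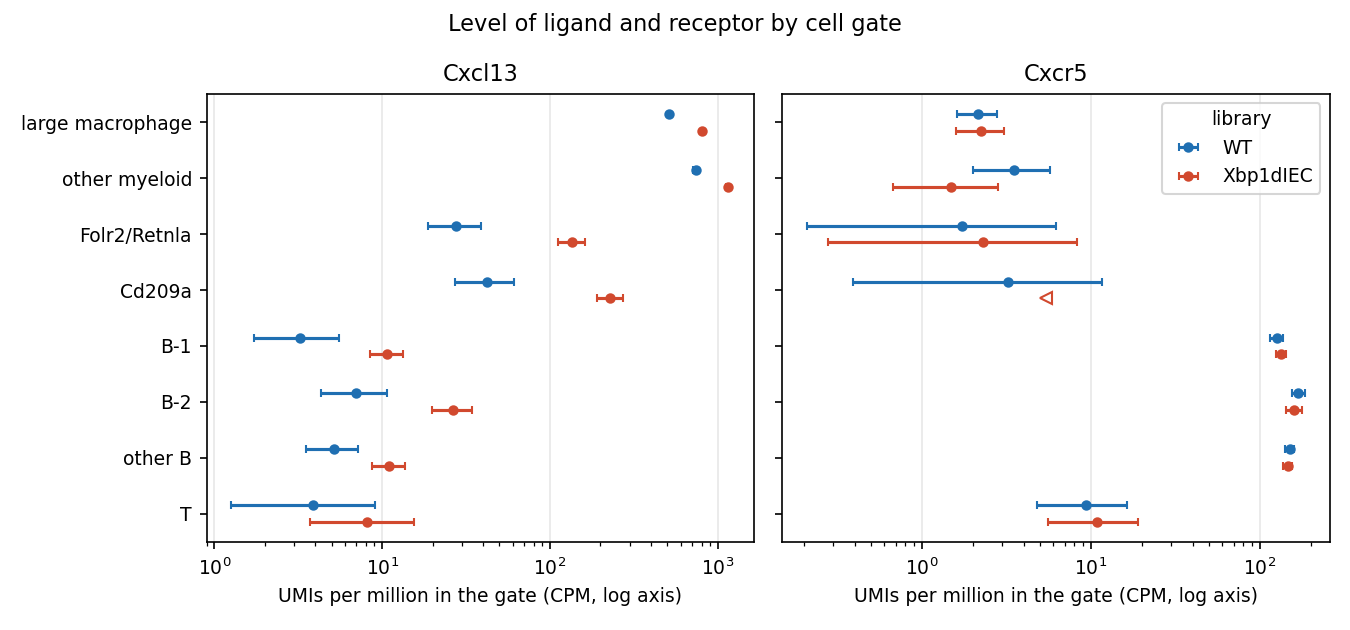
Level of Cxcl13 (left) and Cxcr5 (right) in CPM (log axis) in 8 cell gates of the WT and Xbp1dIEC libraries, with bars for 95% counting intervals and an open triangle for the limit that a count of 0 allows. Cxcl13 is at 513 and 808 CPM in large macrophages, while Cxcr5 is above 100 CPM in B cell gates alone.

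B and T cells, which should lack Cxcl13, were used as the background. After each cell was thinned to 2000 UMIs, so that depth no longer sets the share, 0.796% of WT and 1.55% of Xbp1dIEC B-1 cells had a Cxcl13 UMI, and 1.02% and 2.50% of T cells did. The amount per cell gate was also set against 7 other abundant macrophage genes (Prg4, Alox15, Fn1, Saa3, Slpi, Pf4, Wfdc17). Per 100 UMIs of those genes, large macrophages had 1.34 Cxcl13 UMIs in WT and 2.24 in Xbp1dIEC. All B cells together had 0.350 (0.271 to 0.445) and 1.20 (1.04 to 1.37), below the ratio of large macrophages in both libraries. The Xbp1dIEC B-2 gate alone was above that of Xbp1dIEC large macrophages, at 3.02 (2.26 to 3.95). In the Xbp1dIEC B-2 gate 1 cell held 34 of the 54 UMIs, and without it the level was 9.79 CPM.

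Large macrophages of Xbp1dIEC mice had more Cxcl13 per UMI sequenced than those of WT mice, by 1.57-fold. The log2 ratio, with 1 CPM added to each side, was 0.65 (0.62 to 0.69). It ranked 20 from the top among 11349 genes with at least 20 UMIs in the gate. Of these genes 0.388% were at least 1.5-fold higher in Xbp1dIEC and 2.42% at least 1.5-fold lower, with a median log2 ratio of -0.06. Other myeloid cells gave nearly the same ratio, 0.63 (0.57 to 0.69).

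The difference showed in the amount per positive cell more than in how many cells were positive. Among thinned large macrophages, 23.0% (21.3 to 24.8) in WT and 25.2% (23.3 to 27.2) in Xbp1dIEC had a Cxcl13 UMI, a log2 ratio of shares of 0.13 (-0.02 to 0.29) whose interval spans 0. The interval did not span 0 with the gate lowered by 1 UMI, at 0.20 (0.06 to 0.34), with cells thinned before gating, at 0.31 (0.15 to 0.48), or with Gata6 alone as the marker, at 0.21 (0.04 to 0.39), a setting chosen after seeing the data. Without thinning the shares were 34.7% and 34.8%. The mean over positive cells was 4.57 thinned UMIs in WT and 6.79 in Xbp1dIEC, and the median 2 and 3. The gap between the libraries widened with the count required. Cells with 5 or more UMIs were 7.39% (168 cells) in WT and 10.3% (198 cells) in Xbp1dIEC, a log2 ratio of 0.48 (0.19 to 0.76). Cells with 10 or more were 2.77% (63 cells) and 5.71% (110 cells), a log2 ratio of 1.04 (0.60 to 1.48). Cells with 20 or more were 0.704% (16 cells) and 2.02% (39 cells), a log2 ratio of 1.52 (0.69 to 2.36).

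**Figure D2:**
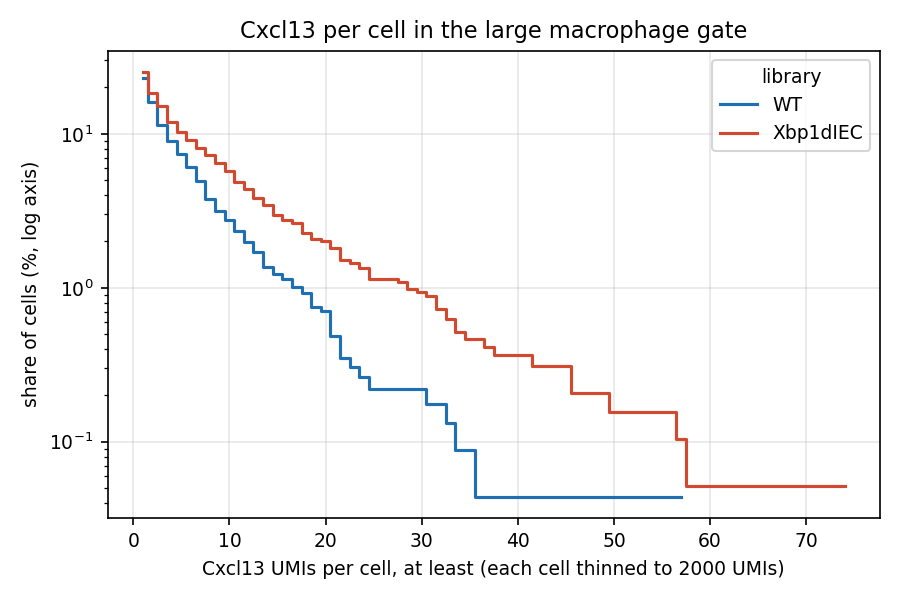
Share of large macrophage gate cells (%, log axis) that hold at least the number of Cxcl13 UMIs on the x axis, each cell thinned to 2000 UMIs, for WT and Xbp1dIEC. The 2 lines start close together, at 23.0% and 25.2% for 1 UMI, and part as the count grows, to 0.704% and 2.02% for 20 UMIs.

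Within each library Cxcl13 was held by few cells. The variance over the mean of thinned UMIs was 10.2 in WT and 16.8 in Xbp1dIEC, where counting error alone gives a value near 1. For Gata6 this ratio was 1.00 and 1.05, for Icam2 1.18 and 1.16, for Timd4 1.44 and 1.44, and for Prg4 1.73 and 1.62. Apoe, the lipid carrier, was above Cxcl13 among the 8 genes compared, at 15.9 and 18.5, from a far higher mean. The 228 WT and 193 Xbp1dIEC cells with the most thinned Cxcl13 UMIs held 80.6% and 81.9% of them. Without thinning, the highest WT cell carried 330 Cxcl13 UMIs and the highest Xbp1dIEC cell 290. The 20 highest cells of each library held 20.02% and 23.7% of the gate's Cxcl13 UMIs. The intervals of Cxcl13 CPM and of ratios of its CPM do not include this spread between cells.

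Timd4 (TIM-4), the phosphatidylserine receptor that marks long-lived resident macrophages, divided the gate by Cxcl13 level. Cells with a Timd4 UMI had 741 CPM in WT (1328 cells) and 1129 CPM in Xbp1dIEC (1028 cells), a log2 ratio of 0.61. Cells without one had 196 CPM (946 cells) and 455 CPM (899 cells), a log2 ratio of 1.21. Cxcl13 was therefore higher in Timd4 positive cells of both libraries and higher in Xbp1dIEC on both sides of the division.

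The markers of the gate gave a smaller spread. Cells with Gata6 UMIs had 539 and 831 CPM and cells without had 473 and 779, with log2 ratios of 0.62 and 0.72. By the sum of Icam2 and Gata6 UMIs, Cxcl13 stood at 664 and 998 CPM for sums of 3 to 5, at 573 and 735 CPM for 6 to 9, and at 370 and 607 CPM for 10 or more. Myeloid cells at a sum of 1 to 2, just outside the gate, had 837 and 1401 CPM. Those at 0 had 544 CPM in WT and 576 CPM in Xbp1dIEC, a log2 ratio of 0.08. At the edge of the gate, 246 WT and 322 Xbp1dIEC cells had a sum of 3, and 225 and 321 a sum of 2.

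Depth moved with the result. When the gate was divided at 8374 and 10932 UMIs per cell, the shallowest cells had 541 CPM in WT and 952 CPM in Xbp1dIEC, a log2 ratio of 0.81. The middle class had 611 and 852 CPM, a ratio of 0.48, and the deepest 461 and 565 CPM, a ratio of 0.29. Xbp1dIEC was higher in all 3 classes. The deepest class held 1043 WT and 357 Xbp1dIEC cells, and what depth stands for in these cells was not tested.

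Cells with UMIs of division genes (Mki67, Top2a, Birc5, Ube2c, Ccna2, Ccnb1, Ccnb2, Cdk1, Cenpf, Tpx2, Nusap1) were the exception. This set was taken from the list of 20 cell cycle genes after the data had been seen, and its UMIs were counted after thinning. Large macrophages with 2 or more division UMIs (159 cells in WT, 56 in Xbp1dIEC) had 177 CPM (160 to 194) of Cxcl13 in WT and 80.4 CPM (61.4 to 104) in Xbp1dIEC, a log2 ratio of -1.13 (-1.55 to -0.74). Their Cxcl13 came from 424 and 60 UMIs, of which the highest cell held 109 and 17. Without those cells the ratio was -1.15. Cells with fewer division UMIs had 549 and 841 CPM, a ratio of 0.61. Their median depth was 10364 and 8641 UMIs, against 16096 and 14223 in dividing cells. The part of depth in these values was not tested. In both libraries dividing cells therefore had less Cxcl13 than the rest of the gate. After thinning, the share of dividing cells with a Cxcl13 UMI was 10.7% in each library. The class planned beforehand, 2 or more UMIs of the 20 cell cycle genes (1469 and 1084 cells), went the other way. It had 492 and 809 CPM, a log2 ratio of 0.72 (0.67 to 0.76). Of the 20 cell cycle genes on the list, none was higher in Xbp1dIEC in this gate and 18 were at least 1.5-fold lower, against 2.42% of all genes measured.

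**Figure D3:**
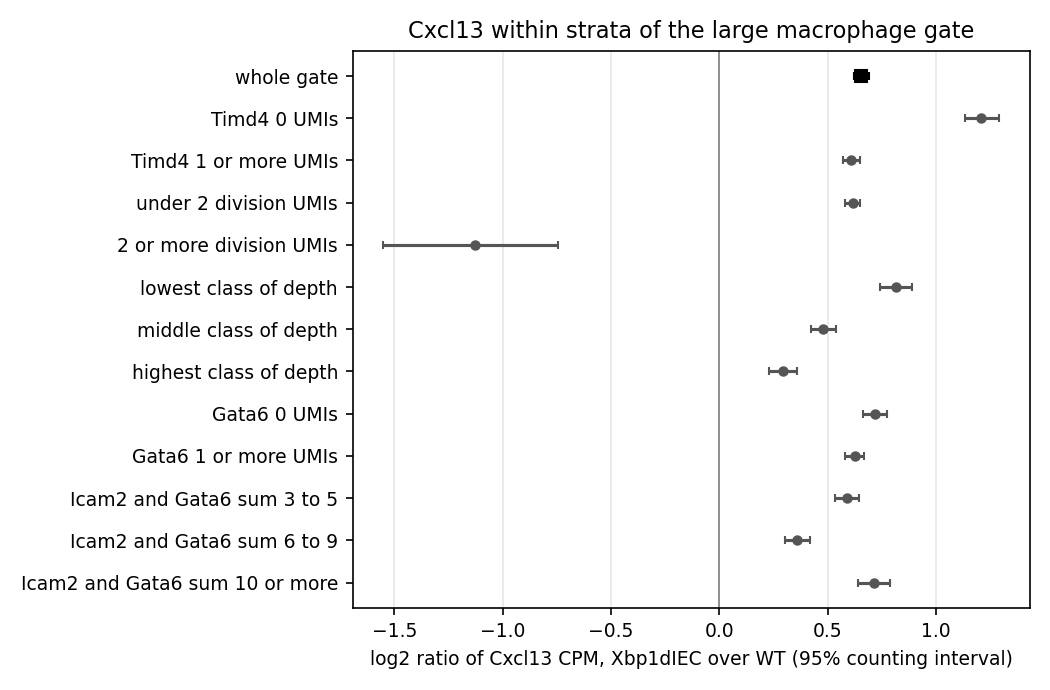
Log2 ratio of Cxcl13 CPM, Xbp1dIEC over WT, in the whole large macrophage gate (square) and within classes of its cells (points), with 95% counting intervals. All classes lie above 0 except the cells with 2 or more division UMIs, at -1.13. That class was set after the data had been seen.

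In the Folr2/Retnla gate Cxcl13 was higher in Xbp1dIEC by a log2 ratio of 2.25 (1.71 to 2.90), on few molecules: 32 UMIs in 11 WT cells and 117 UMIs in 21 Xbp1dIEC cells. Only 1 of the 6547 genes measured had a larger ratio, with 6.23% of them at least 1.5-fold higher and 13.3% at least 1.5-fold lower. No single cell carried the difference, as the highest cell held 8 UMIs in WT and 25 in Xbp1dIEC, and without it the levels were 20.9 and 107 CPM. Icam2 was not absent from this gate. The 50 WT and 44 Xbp1dIEC cells with 3 or more Icam2 UMIs had 34.9 and 112 CPM of Cxcl13, and the others 18.0 and 159 CPM. The absence of Gata6 UMIs mattered for this value: when cells with Gata6 UMIs were also let in, the log2 ratio was 0.48.

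In the Cd209a gate the ratio of 2.42 (1.82 to 3.11) rested on 1 cell per library. A single WT cell held 18 of 26 UMIs and a single Xbp1dIEC cell 122 of 125. Without them the levels were 13.1 CPM (8 UMIs) and 5.56 CPM (3 UMIs), and the ratio turned to -1.10 (-3.78 to 0.83). Cxcl13 in Cd209a cells other than that pair was thus near the level of the lymphocyte gates. Icam2 was present in part of this gate too. The 3 Xbp1dIEC cells with 3 or more Icam2 UMIs held 124 Cxcl13 UMIs and the others 1. The 10 such WT cells held 8 and the others 18. The highest Xbp1dIEC cell therefore carried this marker of the large macrophage gate, and what that cell is was not tested. In this gate 7.3% of 4876 genes were at least 1.5-fold higher in Xbp1dIEC and 13.9% at least 1.5-fold lower.

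Genes that go along with Cxcl13 were sought cell by cell among large macrophages, by Pearson correlation of log2(UMIs + 1) after thinning, over 2274 WT and 1927 Xbp1dIEC cells that share a library and its free RNA. Of 3172 genes, none reached r = 0.2 in either library (0%), so each relation was weak by this measure. Without thinning r was higher for some genes. Timd4 was then at 0.31 in WT and 0.24 in Xbp1dIEC, and Wfdc17 at 0.22 and 0.21. The 15 highest in WT, with r in Xbp1dIEC after it, began with Marco at 0.18 and 0.11, Vsig4 at 0.18 and 0.07, Saa3 at 0.17 and 0.10, Ftl1 at 0.17 and 0.15, and Timd4 at 0.16 and 0.14. Marco is a scavenger receptor, Vsig4 a complement receptor of resident macrophages, Saa3 an acute phase protein and Ftl1 the light chain of ferritin. Wfdc17 followed at 0.16 and 0.17, Cdkn2a, a cell cycle inhibitor gene, at 0.16 and 0.14, and Tyrobp, a signalling adaptor, at 0.14 and 0.06. Bcl2a1b, Pf4, Sepp1, Ttc39c, Wnt2, Malat1 and Fscn1 made up the rest, between 0.10 and 0.12 in WT.

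At the other end stood Slpi, a secreted protease inhibitor, at -0.16 and -0.15, S100a4 at -0.14 and -0.13, Ifi27l2a at -0.13 and -0.09, and Retnla at -0.11 and -0.13. H2-Ab1, Actg1, B2m and Emp3 completed the lowest 8, between -0.10 and -0.11 in WT. The lowest list depended on the measure, as only 2 of the 8 were again among the 8 lowest in WT without thinning. The genes were ranked in WT alone. In Xbp1dIEC all 15 of the highest had a positive r. Of these 7 were at 0.1 or more, and no other of the 3172 genes reached 0.1 there (0.221%). All 8 of the lowest had a negative r in Xbp1dIEC, 3 of them at -0.1 or less. Those 3, Slpi, S100a4 and Retnla, were the only genes at -0.1 or less in both libraries (0.0946%). That share is therefore no comparison for them. The share at -0.1 or less in Xbp1dIEC alone was not counted, nor the share of all genes with each sign. The median r over all genes was -0.005 in WT and -0.006 in Xbp1dIEC.

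**Figure D4:**
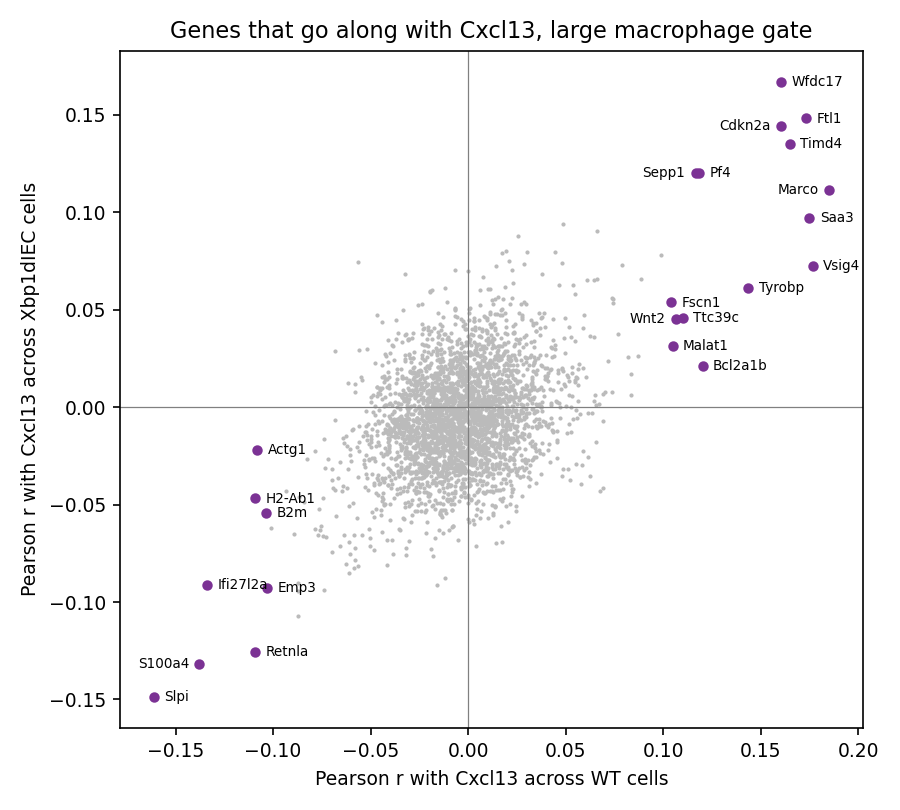
Pearson r of each of 3172 genes with Cxcl13 across WT cells (x axis) and across Xbp1dIEC cells (y axis) of the large macrophage gate, with the 15 highest and 8 lowest in WT in purple. The named genes keep their sign in both libraries, and none reaches 0.2 after thinning.

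Summed over classes of cells, these relations were easier to read. Cells were classed by thinned Cxcl13 UMIs into those with 0 (1751 in WT, 1441 in Xbp1dIEC), 1 to 4 (355 and 288) and 5 or more (168 and 198). Median depth was alike across the 3 classes, 10652, 10329 and 10453 UMIs in WT and 8796, 8735.5 and 8297 in Xbp1dIEC. A Timd4 UMI was present in 51.6%, 80% and 83.9% of WT cells, and in 47.6%, 66.7% and 75.8% of Xbp1dIEC cells. Gata6 was present in 57.9%, 63.4% and 58.3% of WT cells and 54.7%, 59.0% and 56.1% of Xbp1dIEC cells, with no order. Cells with 2 or more division UMIs were 8.11%, 4.23% and 1.19% in WT and 3.47%, 1.74% and 0.505% in Xbp1dIEC.

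Retnla differed most among the named genes. It stood at 1284 CPM in WT cells without Cxcl13 and 242 CPM in those with 5 or more, and at 1469 and 153 CPM in Xbp1dIEC, log2 ratios of -2.40 and -3.26. Cdkn2a went the other way, from 47.7 to 148 CPM in WT and from 25.7 to 94.1 CPM in Xbp1dIEC. Fscn1, the actin bundling protein fascin, stood at 22.5 and 71.9 CPM in WT and at 25.5 and 79.7 CPM in Xbp1dIEC. Marco stood at 144 and 375 CPM in WT and at 69.0 and 171 CPM in Xbp1dIEC. Marco thus went along with Cxcl13 within each library, while its level over the whole gate was lower in Xbp1dIEC, at 89.0 CPM against 190 CPM in WT, a log2 ratio of -1.09. Vsig4 was at 365 and 870 CPM in WT and at 309 and 459 CPM in Xbp1dIEC. H2-Ab1, a class II gene, stood at 152 and 68.6 CPM in WT and at 107 and 42.0 CPM in Xbp1dIEC.

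In WT, 9 of the 15 highest genes were at least 1.5-fold higher in cells with 5 or more Cxcl13 UMIs than in cells with 0, where the share over all genes was 3.44%. That WT count comes from the cells that ranked the genes. In Xbp1dIEC, which did not rank them, 5 of the 15 were, against 3.68% of all genes. Of the 8 lowest, 5 were at least 1.5-fold lower in each library, against 9.78% and 10% of all genes.

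Genes of the pathway that is known to control Cxcl13 had intervals that span 0 between cells with 5 or more and with 0 Cxcl13 UMIs. The log2 ratio of Ltbr, the lymphotoxin beta receptor, was -0.06 (-0.53 to 0.38) in WT and 0.14 (-0.32 to 0.58) in Xbp1dIEC. Relb was at -0.14 (-0.89 to 0.51) and 0.00 (-0.80 to 0.71). Nfkb2, which encodes p52, was at -0.47 (-1.47 to 0.28) and -0.14 (-1.15 to 0.71), and Map3k14, which encodes the kinase NIK, at -0.60 (-2.22 to 0.42) and -0.09 (-1.06 to 0.73). The cells with 5 or more Cxcl13 UMIs held between 6 and 48 UMIs of each of these genes in a library. The intervals of Relb, Nfkb2 and Map3k14 allow changes past 1.5-fold in at least 1 direction, so a change of that size was not detectable at this depth.

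The list of lymphoid chemokines and organisers was set beside the genotype difference in Cxcl13 in large macrophages. Of its 21 members 13 had enough UMIs. In Xbp1dIEC 1 of these was at least 1.5-fold higher and 1 lower, against 0.388% of all genes higher and 2.42% lower. The median log2 ratio was 0.004 over the 13 and -0.06 over all genes. The higher one was Tgfb2, a transforming growth factor, at 132 CPM in WT and 223 CPM in Xbp1dIEC (log2 ratio 0.75). The lower one was Ltb, lymphotoxin beta, at 8.04 and 3.93 CPM. It is a lymphocyte gene, and B lineage markers in the same gate summed to 51.6 CPM in WT and 42.1 CPM in Xbp1dIEC, so the part of lymphocyte RNA in that value was not tested. Cxcl12, the other B cell chemokine of stroma, was at 23.3 and 28.6 CPM (log2 ratio 0.28). Tnfsf13b, which encodes the B cell survival factor BAFF, was at 14.9 and 19.9 CPM (0.39). Map3k14, the kinase NIK of the alternative NF-kB pathway, was at 5.62 and 8.20 CPM (0.47). Ltbr was at 26.2 CPM in both. Ccl19, Ccl21a, Ccl20 and Lta were among the 8 members with too few UMIs.

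Cxcr5 was a B cell transcript. B cells had at least 5 UMIs of B lineage genes, among them Cd79a, Cd79b and Ms4a1. The B-1 gate asked for 3 or more UMIs of Bhlhe41, Zbtb32, Zcwpw1 and Ahnak2 and none of Fcer2a and Cr2, and the B-2 gate for a UMI of Fcer2a (CD23) or Cr2 (CD21), markers of follicular B cells. Markers outside the gate rules followed it. Ighd, the IgD heavy chain of follicular B cells, was at 127 CPM in the WT B-1 gate against 662 CPM in the WT B-2 gate, and at 110 against 577 CPM in Xbp1dIEC. Spn (CD43), a B-1 marker, was at 31.1 against 13.3 CPM and at 24.2 against 9.27 CPM.

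In the B-1 gate Cxcr5 stood at 126 CPM (115 to 137) in 377 WT cells and 133 CPM (125 to 142) in 647 Xbp1dIEC cells, from 506 and 986 UMIs. In the B-2 gate it stood at 169 CPM (155 to 185) in 527 WT cells and 159 CPM (143 to 178) in 393 Xbp1dIEC cells, from 509 and 327 UMIs. B cells in neither gate were between, at 150 and 147 CPM. Relative to WT, the CPM in Xbp1dIEC had a log2 ratio of 0.08 (-0.07 to 0.24) in B-1 cells and -0.09 (-0.29 to 0.12) in B-2 cells. Both intervals span 0 and leave room for differences up to their bounds. At equal depth per cell, after thinning, the mean was 0.218 Cxcr5 UMIs per B-1 cell in WT and 0.243 in Xbp1dIEC, and 0.410 and 0.290 per B-2 cell, with no interval computed for these means. With cells thinned before gating the B-2 log2 ratio was -0.33 (-0.78 to 0.11). Of all genes, 4.73% were at least 1.5-fold higher in the B-1 gate and 4.46% lower, and 3.44% higher and 6.47% lower in the B-2 gate. Cxcr5 was in neither class in either gate. More B-1 and fewer B-2 cells were captured in Xbp1dIEC, so the share of all Cxcr5 UMIs in the B-1 gate was 19.1% in WT and 36.1% in Xbp1dIEC.

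B-2 cells had more Cxcr5 per UMI sequenced than B-1 cells in both libraries, by a log2 ratio of 0.42 (0.25 to 0.61) in WT and 0.26 (0.07 to 0.44) in Xbp1dIEC, folds of 1.34 and 1.19. The share of cells with a UMI went the other way before thinning, at 68.4% and 67.9% of B-1 cells against 54.6% and 49.6% of B-2 cells. B-1 cells were deeper, with medians of 9228 and 9419 UMIs against 4580 and 4186, so no order is read from those shares. After thinning, 19.4% (15.5 to 23.7) of WT B-1 cells and 33.0% (29.0 to 37.2) of WT B-2 cells had a UMI. In Xbp1dIEC the thinned shares were 21.9% (18.8 to 25.3) and 24.9% (20.7 to 29.5), with intervals that overlap. The shares of B-2 cells in WT and Xbp1dIEC also have intervals that overlap, from 29.0% to 29.5%. The Xbp1dIEC log2 ratio of CPM between the gates had an interval that spans 0 with the gates raised by 1 UMI, at 0.22 (-0.04 to 0.48), and with cells thinned before gating, at 0.37 (-0.05 to 0.79). The background in large macrophages was 0.396% and 0.467%.

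Across all WT B cells Cxcr5 was lower with more B-1 marker UMIs. By their sum, it stood at 162 CPM (150 to 175) for 0, 153 for 1 to 2, 138 for 3 to 5, and 129 (117 to 142) for 6 or more, so the intervals of the first and the last class are apart. In Xbp1dIEC the values were 148 (135 to 161), 151, 134 and 138 CPM (129 to 148), and those intervals overlap. After thinning, 29.9% of WT B cells with no B-1 marker UMI and 19.5% of those with 6 or more had a Cxcr5 UMI, and 26.0% and 22.9% in Xbp1dIEC. The cells with 10 or more UMIs of Zcwpw1, a gene with a histone reader domain, were the one subset where the libraries stood apart, at 94.8 CPM (74.4 to 119) in 56 WT cells and 141 CPM (127 to 157) in 189 Xbp1dIEC cells, a log2 ratio of 0.57. That subset was one of 9 taken from the B cells by markers. Cells with Spn or Cd5 had 126 and 137 CPM, those with 5 or more Ighd UMIs 161 and 157 CPM, and those with 2 or more UMIs of Cr2 or Fcer2a 170 and 162 CPM. Dividing B cells were few, 15 in WT and 28 in Xbp1dIEC, with 111 and 85.7 CPM.

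Other homing receptors separated B-2 from B-1 cells more widely than Cxcr5 did. Of 15 receptors on the list 11 had enough UMIs. In WT 7 were at least 1.5-fold higher in B-2 cells and 1 lower, where 13.5% of all genes were higher and 6.4% lower. In Xbp1dIEC 6 were higher and 1 lower, against 12.8% and 10.2%. Ccr7, which guides lymphocytes to the T cell zone, was at 297 CPM in B-2 and 60.0 CPM in B-1 cells of WT, and at 255 and 36.1 CPM in Xbp1dIEC. Ccr6, the receptor of CCL20, was at 34.3 and 7.46 CPM in WT and at 28.3 and 6.22 CPM in Xbp1dIEC. Gpr183, the receptor for oxysterols that places B cells at the edge of the follicle, was at 149 and 73.1 CPM in WT and at 135 and 65.7 CPM in Xbp1dIEC. Cnr2 and S1pr4 were also higher in both libraries. Cxcr4, the receptor of CXCL12, had a log2 ratio of 0.68 in WT and 0.17 in Xbp1dIEC. S1pr1, which governs exit from lymphoid tissue, was near level at -0.06 and -0.11, as were Itga4 at 0.21 and 0.32 and Itgb7 at -0.19 and -0.03.

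Ccr9, a gut homing receptor, was the one receptor lower in B-2 cells, at 1.66 CPM (5 UMIs) against 9.95 CPM (40 UMIs) in WT and at 0.975 CPM (2 UMIs) against 9.20 CPM (68 UMIs) in Xbp1dIEC. Between genotypes, 1 of 11 receptors measured in B-1 cells, Ccr7, was at least 1.5-fold lower in Xbp1dIEC and none was higher, against 4.46% of all genes lower and 4.73% higher. In B-2 cells none of 10 was past that fold, against 6.47% lower and 3.44% higher. Ccr7 in B-1 cells was 60.0 CPM in WT and 36.1 CPM in Xbp1dIEC, a log2 ratio of -0.72.

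B cells also make the signals that act on the cells producing CXCL13. Ltb stood at 501 CPM in WT and 314 CPM in Xbp1dIEC B-1 cells, a log2 ratio of -0.67 (-0.76 to -0.59), and at 887 and 759 CPM in B-2 cells, a ratio of -0.22 (-0.32 to -0.13). Nfkb2 in B-1 cells was at 28.6 and 17.3 CPM (-0.69). Of the 7 organiser genes measured in B-1 cells these were the 2 past 1.5-fold, both lower in Xbp1dIEC, against 4.46% of all genes. In B-2 cells 2 of 8 were past that fold, both lower, against 6.47% of all genes, and from few UMIs. Lta, lymphotoxin alpha, was at 7.32 CPM (22 UMIs) and 3.90 CPM (8 UMIs), a log2 ratio of -0.76 (-2.28 to 0.31). Tnfrsf1b, a receptor for tumour necrosis factor, was at 12.3 CPM (37 UMIs) and 7.80 CPM (16 UMIs), a log2 ratio of -0.60 (-1.60 to 0.22). Both intervals span 0. Among 14 genes of chemokine receptor signalling measured in the B-1 gate, Pik3cd, the leukocyte PI3-kinase subunit p110 delta, was at least 1.5-fold higher, at 55.5 and 94.5 CPM, against 4.73% of all genes, and none was lower. In B-2 cells no gene of that list passed the fold in either direction.

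T cells had little Cxcr5. The gate took cells with 3 or more UMIs of Cd3d, Cd3e and Cd3g, and held 294 WT and 240 Xbp1dIEC cells. Cxcr5 stood at 9.35 CPM (4.83 to 16.3) in WT and 10.8 CPM (5.61 to 19.0) in Xbp1dIEC, from 12 UMIs in each, a log2 ratio of 0.19 (-1.07 to 1.497). After thinning, 1.02% and 2.08% of T cells had a UMI, with intervals that overlap those of large macrophages in WT and in Xbp1dIEC. By CPM, large macrophages were lower, at 2.14 (1.60 to 2.80) and 2.25 (1.60 to 3.08). Against 6 other B cell genes (Ly6d, Cd22, Ebf1, Pax5, Fcmr, Blk), T cells had 26.1 (12.6 to 50.04) Cxcr5 UMIs per 100 in WT and 24.0 (11.6 to 45.7) in Xbp1dIEC, where B-2 cells had 3.97 and 3.77. Large macrophages were at 7.06 and 8.76.

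By subset, the 55 WT T cells with Cd4 and no Cd8 held 5 Cxcr5 UMIs and the 96 with Cd8 and no Cd4 held 3. In Xbp1dIEC the 41 Cd4 cells held 1 UMI and the 71 Cd8 cells held 8. With so few molecules no order between the subsets is read. H2-Ab1 had a UMI in 27.2% of WT and 23.8% of Xbp1dIEC cells of the T gate. Whether these UMIs came from free RNA or from other cells was not tested. Of 10 follicular helper T genes 6 had enough UMIs in the T gate. Icos, a costimulatory receptor, was lower in Xbp1dIEC (34.3 and 19.9 CPM), as was Ccr7, and none was higher, against 7.17% of all genes at least 1.5-fold higher and 7.42% lower. Bcl6, Pdcd1, Il21 and Tox2, the other defining genes on that list, had too few UMIs. Other cells had almost no Cxcr5: 2 UMIs in the Folr2/Retnla gate of each library, 2 and 0 in the Cd209a gate, where 0 allows up to 5.46 CPM by the same limit of 3 counts, and none among natural killer cells.

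No gene went along with Cxcr5 strongly enough to be named. Over 904 WT and 1040 Xbp1dIEC cells of the B-1 and B-2 gates and 3071 genes, the highest r in WT was 0.14, under the 0.2 required.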

How the data were processed

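Peritoneal cells of 2 pools were measured by droplet 3′ sequencing. The authors deposited raw counts, whole UMIs for each gene and barcode. Cell Ranger 2.2.0, Seurat 2.3.0 and mm10 are named in the submitters' processing notes, whereas annotation, use of strand and barcode filter are not given in those sources. A barcode needed at least 500 UMIs, 200 genes and a mitochondrial share under 10%, and 6 in WT and 20 in Xbp1dIEC failed the last of these. The scrublet method in scanpy 1.11.5, at an expected rate of 5%, marked 140 and 113 doublets, which were removed. Gates excluded cells with more than 2 UMIs of another lineage. Cells with genes of 2 lineages (431 and 258) and those in no gate (358 and 494) were left out of the comparisons.

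Levels are CPM of a gate's summed UMIs, with exact Poisson intervals. Ratios of CPM on the log2 scale were taken after adding 1 CPM, with exact conditional binomial intervals of the plain ratio, without the added CPM. Shares have exact Clopper-Pearson intervals. Log2 ratios of shares had no CPM added, and their intervals are a normal approximation. All intervals are at 95%. Genes entered a comparison with 20 or more UMIs over both groups, and the fold of interest was 1.5. Thinning drew 2000 UMIs per cell with seed 11. Genes named along with Cxcl13 were the 15 highest and 8 lowest by r in WT with a mean of 0.05 thinned UMIs or more. Of the promoter table from RefSeq, 1 of the 2 genes was matched. Values of some marker and list genes are not reported here. Both genes and all lists were chosen with earlier results of these data known, and gate thresholds after marker levels had been seen. Lyz2 was left out of the thresholds because nearly all barcodes carried it. Intervals were tried on counts simulated by the same Poisson model that they assume. That cannot show how they hold for Cxcl13, which varies more between cells. Ranking was tried on planted genes with means above the 0.05 used here, so rarer genes were not covered. Markers of other cells in the large macrophage gate of WT and Xbp1dIEC summed to 1.33 and 0.404 CPM for natural killer cells, 1.90 and 2.43 for mast cells, 17.7 and 14.8 for neutrophils, 0.768 and 0.462 for dendritic cells, 112 and 123 for plasma cells (nearly all of it Xbp1) and 3.27 and 1.67 for T cells. Alternatives changed the gates, doublet step, mitochondrial filter, depth, scaling, added CPM and, for correlations, the measure and cells. Python 3.11.15, numpy 2.4.6, scipy 1.17.1, pandas 2.3.3 and matplotlib 3.10.9 were used.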

Additional observations from a re-analysis of the deposited data

Results flagged for a closer look

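Cxcl13 stood apart by division state within large macrophages. In cells with 2 or more division UMIs, Cxcl13 was lower in Xbp1dIEC than in WT (log2 ratio -1.13), and in cells with fewer it was higher (log2 ratio 0.61). The opposite signs drew attention to this pair of values. The difference between the 2 ratios was not tested, since each genotype is 1 pool. The dividing cells numbered 159 in WT and 56 in Xbp1dIEC, and they were deeper than the rest, with medians of 16096 and 14223 UMIs.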

How the results depend on the processing

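No paired analysis was possible because each genotype had 1 library. Of 131 values for the main comparisons, 100 kept their direction and stayed within the counting interval or 1.5 times the count. In large macrophages the Cxcl13 log2 ratio of 0.65 was 0.71 with the gate lowered by 1 UMI, 0.61 with under 5% mitochondrial UMIs and 0.82 with cells thinned before gating. Among settings chosen after seeing the data, it was 0.72 with Gata6 alone as the marker and 0.59 without the 20 highest cells of each library. The ratio of shares with a UMI was 0.31 with thinning before gating. The Cd209a value was 1.52 with doublets kept, 1.26 with Gata6 UMIs allowed and -1.10 without the highest cell of each library, and the Folr2/Retnla value 0.48 with Gata6 UMIs allowed (all but the doublet setting chosen after seeing the data). Cxcr5 was at -0.18 in B-1 and -0.33 in B-2 cells with thinning before gating. The share of Cxcl13 UMIs in the highest Xbp1dIEC cells was 83.6% with the gate raised, 79.3% lowered, 83.2% with the stricter mitochondrial filter, 77.8% thinned and 76.6% with Gata6 alone (77.9% in WT). By class of cell, the ratio without Timd4 was 1.30 raised, 0.79 thinned and 0.99 with Gata6 alone, and with Timd4 it was 0.56 raised, 0.68 lowered, 0.82 thinned and 0.72 with Gata6 alone. Under 2 cell cycle UMIs it was 0.43 raised, 0.49 with the mitochondrial filter, 0.65 thinned and 0.71 with Gata6 alone. Without thinning, 2 genes (Timd4 and Wfdc17) reached r = 0.2 with Cxcl13 in both libraries and 21 reached 0.1. Of the 15 highest genes in WT, 12 were again among the 15 highest without thinning, but of the 8 lowest only 2 were again. By Spearman rank correlation these counts were 14 and 6, and without cells carrying cell cycle UMIs 11 and 5. In Xbp1dIEC, r of Actg1 was 0.0492 without cells carrying cell cycle UMIs and r of Bcl2a1b was -0.00105 with the gate raised. The cause of these shifts was not tested. Depth limits Cxcr5 in T cells, with 12 UMIs per library, and Cxcl13 in the Folr2/Retnla and Cd209a gates.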
